A study of Mus musculus with 12 samples.

Results

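The Gimap genes encode GTPases of the immunity-associated protein family, a group of guanine nucleotide-binding proteins made mainly in lymphocytes. The members were the 8 mouse genes Gimap1, Gimap3, Gimap4, Gimap5, Gimap6, Gimap7, Gimap8 and Gimap9, taken by gene symbol. Each had exactly 1 row in the deposited table, so 8 of 19505 genes with a named row were followed. RNA was measured on 12 one-colour arrays of regulatory T cells, which hold immune responses in check, sorted from lymph nodes. There were 6 arrays of mice labelled NOD.Drak2-/- (replicates 1 to 5 and 7) and 6 arrays of NOD mice (replicates 1 to 6), all females aged 4 to 8 weeks, untreated as far as the labels say. Drak2, a kinase and the product of Stk17b, dampens T cell receptor signalling, and NOD is an inbred strain that develops autoimmune diabetes spontaneously and is the shared background of both groups. The labels give the cells as CD4+ CD8- CD25+ CD45RBlo, and they do not say which part of the kinase gene was deleted or in which cells.

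Gimap proteins share a GTP-binding domain of the AIG1 type, named after a plant protein, and many sit on intracellular membranes, where they are thought to set how long a lymphocyte survives. The genes lie next to each other in 1 cluster on mouse chromosome 6. The family is well known in diabetes research because a loss-of-function mutation of Gimap5 makes the BB rat lymphopenic and prone to autoimmune diabetes. In mice, loss of Gimap5 or Gimap1 depletes mature T cells.

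The upstream promoter sequences are shown for Gimap6 and Gimap8, the pair of members whose values followed each other most closely over the arrays, and for Gimap3, the member whose values separated the genotypes. Gimap3 was added to this set after its values were seen. Each is the 250 bases before the annotated start, 5′ to 3′ on the strand of the gene, from RefSeq on GRCm38.p6. Capitals mark a match to a FOXO motif (GTAAACA on either strand), the 1 match found in the 3 sequences.
Gimap6 (chr6:48708245-48708494, minus strand): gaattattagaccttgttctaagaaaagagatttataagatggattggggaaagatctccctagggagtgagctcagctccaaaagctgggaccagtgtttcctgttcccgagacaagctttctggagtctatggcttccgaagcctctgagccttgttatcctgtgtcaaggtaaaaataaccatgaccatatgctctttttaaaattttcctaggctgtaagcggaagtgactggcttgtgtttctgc
Gimap8 (chr6:48646984-48647233, plus strand): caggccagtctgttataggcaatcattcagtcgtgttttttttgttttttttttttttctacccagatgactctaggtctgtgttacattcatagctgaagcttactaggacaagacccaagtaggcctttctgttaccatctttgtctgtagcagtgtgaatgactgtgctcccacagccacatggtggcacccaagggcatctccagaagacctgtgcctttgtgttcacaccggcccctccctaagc
Gimap3 (chr6:48770852-48771101, minus strand): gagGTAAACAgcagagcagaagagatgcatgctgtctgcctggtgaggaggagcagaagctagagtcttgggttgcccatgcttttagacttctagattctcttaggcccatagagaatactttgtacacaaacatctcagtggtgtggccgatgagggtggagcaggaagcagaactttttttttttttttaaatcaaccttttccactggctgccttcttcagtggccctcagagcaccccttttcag
The sequences of Gimap6, Gimap8 and Gimap3 held 43.6%, 46.8% and 47.2% G and C, beside a median of 52.4% over 32851 promoter windows of the same length. Gimap8 had 2 annotated starts, and the window of the upstream one is printed. Promoter windows were found for all 8 members and searched on both strands for 6 short motifs, none of which contains the letters of another. An SP/KLF motif (GGGCGG) was present in 2 members, Gimap7 and Gimap9, and in 32.7% of all windows. A RUNX motif (TGTGGT) was present in 3 members, Gimap1, Gimap4 and Gimap7, and in 14.0% of all windows. The FOXO motif was in 1 member, Gimap3, and in 3.17% of all windows. The letters of an ETS motif (CCGGAA, 3952 of the 32851 windows), a TCF/LEF motif (CTTTGA, 13.8%) and an interferon-stimulated response element (2.98%) were in 0 of the 8 members. These are matches of letters within a short window and say nothing of binding.

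The arrays carried 23 antigenomic background rows, whose probes have no target in the genome. The brightest of them averaged a log2 value of 5.87 and served as the background level. Array medians over all genes ran from 5.18 to 5.24 in NOD.Drak2-/- and from 5.22 to 5.34 in NOD (log2 values). The brightest background row ran from 5.55 to 6.77 in NOD.Drak2-/- arrays, highest in replicates 2 (6.77) and 1 (6.52), and from 5.51 to 6.06 in NOD arrays. Results that rest on those 2 arrays are given with and without them. The T cell markers Cd3e and Cd4 were above the background row on 12 of 12 arrays, as was the regulatory T cell marker Ctla4. Of the 9 measured regulatory T cell markers 8 were above the background level, while Il2ra, which encodes CD25, averaged 5.00 in NOD.Drak2-/- and 4.82 in NOD and lay below the background row on all 12 arrays. Foxp3 had no named row and was not analysed here. Of the markers of other cells, 1 of 6 B cell, 0 of 8 myeloid and dendritic, 1 of 5 NK cell and 1 of 2 CD8 T cell genes averaged above the background level. So did 2 of 7 endothelial and stromal genes. These were Pecam1 (9.23 in NOD.Drak2-/- and 9.12 in NOD) and Col1a1 (6.57 in NOD.Drak2-/- and 6.66 in NOD). The B cell gene Ms4a1 and the CD8 gene Cd8a were below the background row on all 12 arrays. The other CD8 gene, Cd8b1, averaged 7.45 in NOD.Drak2-/- and 7.27 in NOD (log2 difference 0.18, adjusted p = 0.661 in limma). Cd79b, the B cell gene above the background level, averaged 6.37 in NOD.Drak2-/- and 5.89 in NOD (log2 difference 0.48, unadjusted p = 0.00215, adjusted p = 0.436 in limma), and the part of B cells in the Gimap values was not tested. Of the 6 B cell genes 3 averaged higher and 3 lower in NOD.Drak2-/-. At an unadjusted p under 0.05 in limma 1 was higher and 2 were lower, beside 3.74% and 5.69% of all genes. The lower 2, Blk (log2 difference -0.30) and Pax5 (-0.54), averaged below the background level. The mean of the 6 B cell genes ran from 4.77 to 5.38 over NOD.Drak2-/- arrays and from 4.88 to 5.18 over NOD arrays. The level of Stk17b was 10.25 ± 0.15 in arrays labelled NOD.Drak2-/- and 10.52 ± 0.21 in NOD (log2, SD, n = 6 each), a difference of -0.27 with overlapping groups, and where its probes lie relative to the deletion is not known here, so it does not check the labels. In sorted bulk samples, fewer cells of a type and less RNA per cell cannot be told apart.

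All 8 Gimap genes averaged higher in NOD.Drak2-/- than in NOD regulatory T cells, by small amounts, and 0 of the 8 passed the test over all genes. The log2 differences ran from 0.03 (Gimap9) to 0.25 (Gimap3), with a median of 0.15 over the members beside -0.02 over all 19505 genes. A positive difference was met by 45.9% of all genes. All 8 members averaged above the background level, and among the 8128 genes that did so 55.4% had a positive difference and the median was 0.03. With each array centred on its median, 60% of all genes and again 8 of 8 members had a positive difference, and the medians were 0.21 for the members and 0.05 for all genes. In limma, which compared the genotypes over all genes with Benjamini-Hochberg adjustment, the adjusted p-values of the members lay between 0.483 and 0.949. An adjusted p under 0.05 was met by 4 genes, 0.0205% of all genes, and by 0 members. Of these 4 genes 3 were higher in NOD.Drak2-/-, 0.0154% of all genes. An unadjusted p under 0.05 was met by 1 member, Gimap3, beside 9.43% of all genes. Of those genes 730 were higher in NOD.Drak2-/- and 1110 lower, while with the arrays centred on their medians 1423 were higher and 531 lower. The 8 genes lie together and were measured on the same arrays, so they are not 8 separate observations.

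**Figure D1:**
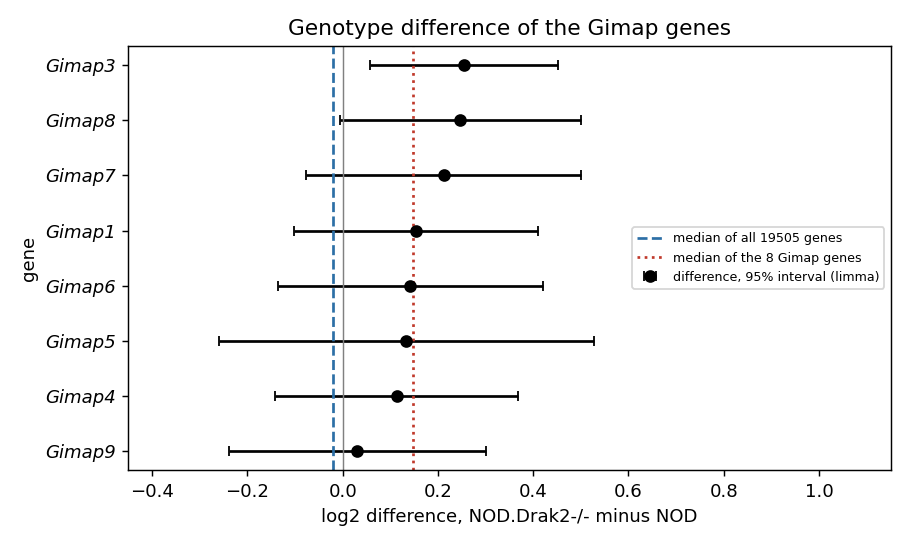
Log2 difference of each Gimap gene, NOD.Drak2-/- minus NOD (x axis), with its 95% interval from limma over 6 arrays per genotype. The points lie between 0.03 and 0.25, all right of the median of all genes (dashed, -0.02), and the interval of Gimap3 is the one that leaves out 0.

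Gimap3 encodes a close relative of the Gimap5 protein, with which it shares roles in T cell survival in mice. Its log2 values had a lowest, median and highest of 8.59, 8.71 and 8.79 in NOD.Drak2-/-, against 8.31, 8.46 and 8.56 in NOD. The lowest NOD.Drak2-/- array, replicate 7, was above the highest NOD array, replicate 4, so the groups did not overlap. A separation with NOD.Drak2-/- above was met by 1 of 8 members and by 0.179% of all genes (35 genes). The means were 8.71 ± 0.08 in NOD.Drak2-/- and 8.46 ± 0.09 in NOD (log2, SD, n = 6 each). The log2 difference was 0.25 (SE 0.09, 95% interval 0.06 to 0.45), a 1.19-fold higher level, with an unadjusted p of 0.0144 and an adjusted p of 0.483 in limma. The two-sided exact permutation test of these 6 against 6 values gave p = 0.00216, the smallest that regrouping these arrays can give. That p follows from the groups not overlapping and adds nothing to it. Groups apart in either direction were met by 0.513% of all genes (100 genes). By unadjusted limma p Gimap3 stood at rank 579 of 19505 genes, so it does not pass when all genes are considered. The difference was 0.23 without the 2 arrays with the brightest background rows and 0.24 with that row as a covariate, and it stayed between 0.23 and 0.28 when any 1 array was left out.

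Gimap5 is the member whose loss causes lymphopenia in rats and mice, and its protein is found on lysosomal membranes. Its log2 values had a lowest, median and highest of 6.78, 7.11 and 7.64 in NOD.Drak2-/-, against 6.29, 7.07 and 7.38 in NOD. The groups overlapped in part, with NOD.Drak2-/- replicates 4 (7.64) and 7 (7.43) above the highest NOD array. Gimap5 had the widest spread of the members in both genotypes (SD 0.34 in NOD.Drak2-/- and 0.38 in NOD, n = 6 each). The log2 difference was 0.13 (95% interval -0.26 to 0.53, adjusted p = 0.835 in limma). NOD replicate 2, at 6.29, lay far below the other NOD arrays, and without it the difference was -0.01. Gimap1, which mature T and B lymphocytes of mice need for their survival, had values of 6.58, 6.79 and 6.89 in NOD.Drak2-/- and 6.21, 6.62 and 6.94 in NOD (lowest, median and highest log2 value). The NOD.Drak2-/- range of Gimap1 lay inside the NOD range. Its log2 difference was 0.15 (95% interval -0.10 to 0.41, adjusted p = 0.695 in limma), and 0.07 without NOD replicate 2.

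**Figure D2:**
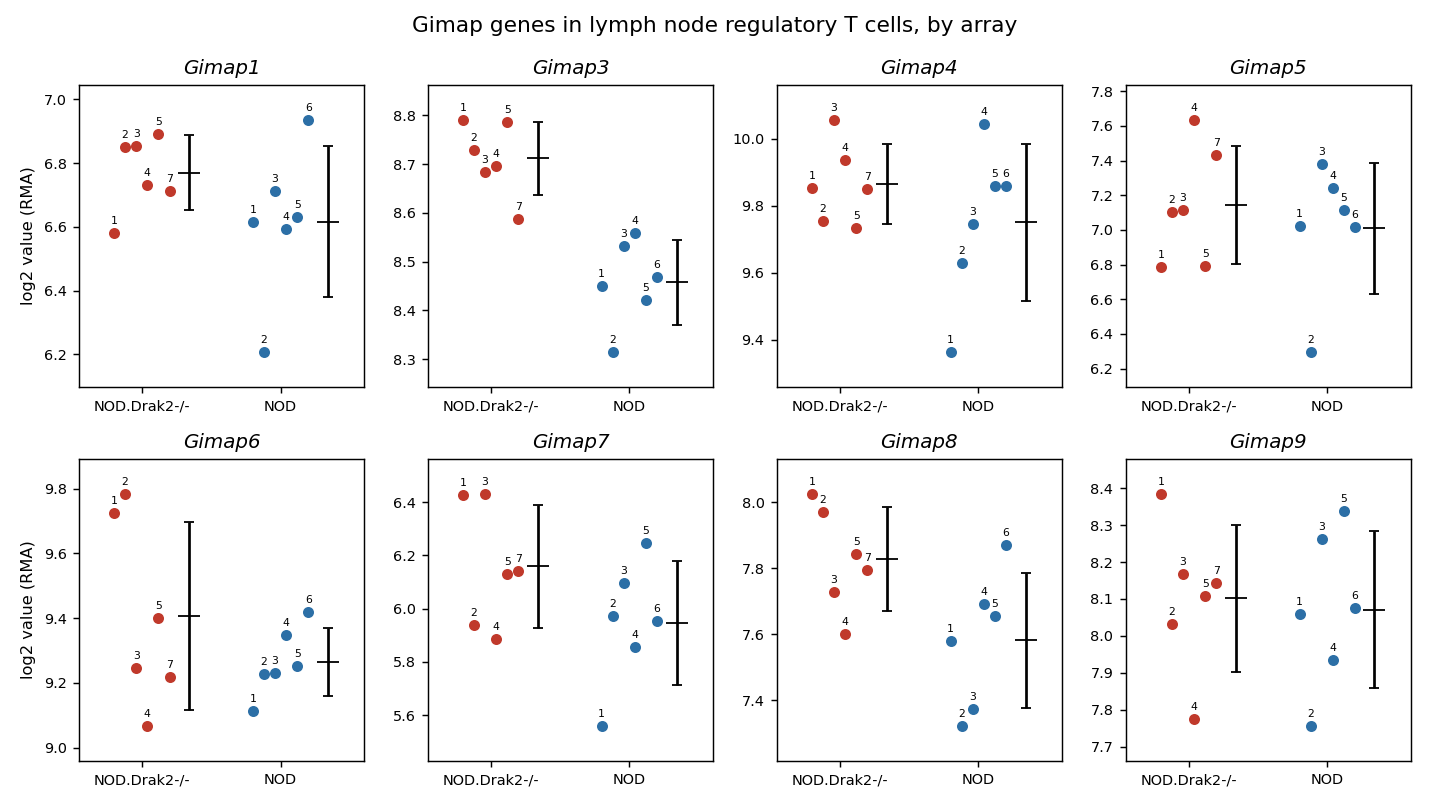
RMA log2 values (y axis) of the 8 Gimap genes on each array, NOD.Drak2-/- left (red) and NOD right (blue), with replicate numbers and the mean ± SD of each group as black bars (n = 6 each). The axes differ between genes and do not start at 0. The groups are apart for Gimap3 and overlap for the other 7 genes, and NOD replicates 1 and 2 hold all of the lowest NOD values.

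Gimap6 binds an Atg8 protein, Gabarapl2, and takes part in autophagy, the delivery of cell contents to lysosomes. Its log2 values had a lowest, median and highest of 9.07, 9.32 and 9.78 in NOD.Drak2-/-, against 9.11, 9.24 and 9.42 in NOD. NOD.Drak2-/- replicates 1 and 2, at 9.72 and 9.78, were above all other arrays, while the other 4 ran from 9.07 to 9.40 within or below the NOD range. The spread was 0.29 in NOD.Drak2-/- and 0.11 in NOD (SD of log2 values, n = 6 each), and the log2 difference was 0.14 (95% interval -0.14 to 0.42, adjusted p = 0.736 in limma). Without replicates 1 and 2 of NOD.Drak2-/- it was -0.03, so the direction of Gimap6 rested on those arrays.

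Gimap6 followed the background rows of the arrays. Over the 12 arrays its Pearson r with the brightest background row was 0.97 and its Spearman rho 0.91 (permutation p = 1e-05, the smallest that 100000 resamples can give, and p = 0.00014). Over the 8 members tested in this way the adjusted permutation p-values of Gimap6 were 8e-05 for r and 0.00112 for rho. Without the 2 arrays farthest from the median, NOD.Drak2-/- replicates 1 and 2, r was 0.88. Within the genotypes r was 0.99 in NOD.Drak2-/- and 0.78 in NOD (n = 6 each, a description). Of all 19505 genes, Gimap6 had the highest r with this row, where 15.6% of genes had an r over 0.5. The row that was brightest was 1 of 2, depending on the array, and with the mean of all 23 background rows the r of Gimap6 was 0.94, with single rows between 0.49 and 0.95. With that mean Gimap6 was no longer the highest: 3 genes, Gimap6 included, had an r at or above its own. The relation of Gimap6 with the background rows was looked for after the values were seen. With the brightest background row as a covariate the log2 difference of Gimap6 was 0.01 (adjusted p = 0.991 in limma). In replicates 1 and 2 of NOD.Drak2-/- the heat shock and dissociation genes averaged 8.49 and 8.61, against 7.88 to 8.35 in the other NOD.Drak2-/- arrays and 7.98 to 8.31 in NOD. The naive T cell markers averaged 9.06 and 9.19 in replicates 1 and 2, against 8.61 to 8.90 in the other NOD.Drak2-/- arrays and 8.52 to 8.88 in NOD. Other lists were high there too. The T cell markers averaged 10.54 and 10.46, against 10.27 to 10.41 in the other NOD.Drak2-/- arrays and 10.25 to 10.46 in NOD. Regulatory T cell markers, at 9.41 and 9.40, lay within the range of the other arrays. The part of any of these lists in the level of Gimap6 was not tested.

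**Figure D3:**
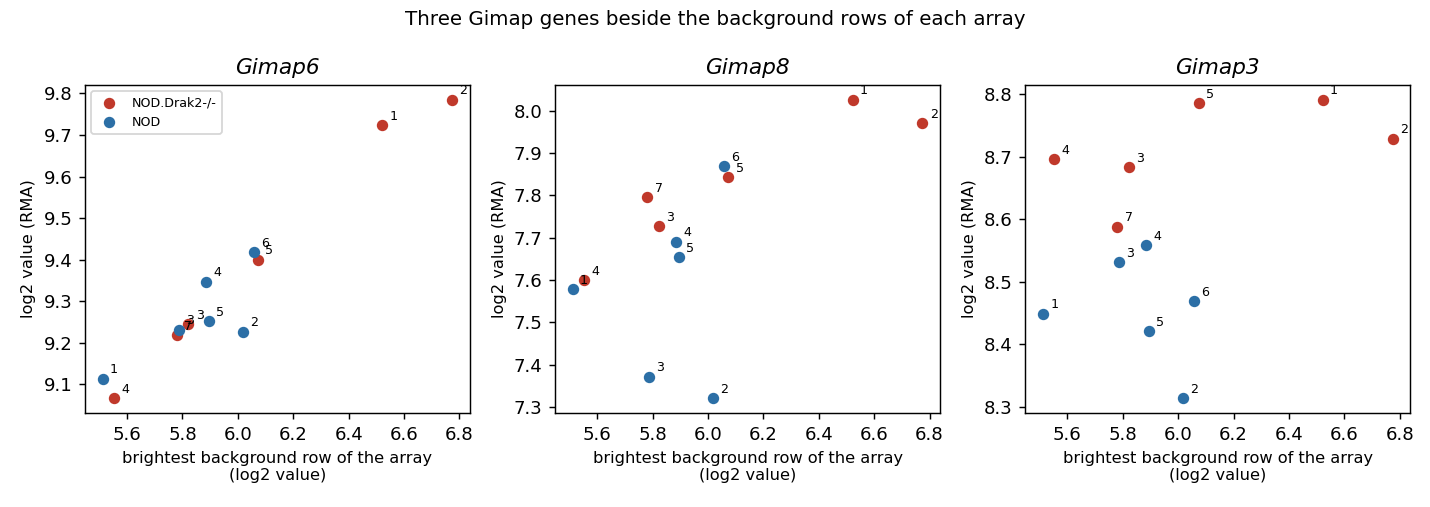
RMA log2 values (y axis) of Gimap6, Gimap8 and Gimap3 against the brightest background row of the same array (x axis, log2), with replicate numbers, NOD.Drak2-/- in red and NOD in blue. Gimap6 lies along a line (r = 0.97), Gimap8 does so less closely (r = 0.63), and the red points of Gimap3 lie above the blue ones. The arrays with a background row above 6.06 are all NOD.Drak2-/-.

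Gimap8, which carries several GTP-binding domains where most members carry a single one, had the second largest difference. Its log2 values had a lowest, median and highest of 7.60, 7.82 and 8.03 in NOD.Drak2-/-, against 7.32, 7.62 and 7.87 in NOD. The 6 NOD.Drak2-/- arrays were all above the NOD mean of 7.58, and the highest NOD array, replicate 6, was above 4 of them. The log2 difference was 0.25 (SE 0.12, 95% interval -0.01 to 0.50, unadjusted p = 0.0555, adjusted p = 0.535 in limma), with a two-sided exact permutation p of 0.0455. The same permutation test gave p = 0.154 for Gimap7, 0.182 for Gimap1, 0.314 for Gimap6, 0.344 for Gimap4, 0.556 for Gimap5 and 0.799 for Gimap9. The permutation p-values of the members were not adjusted for the number of genes. The r of Gimap8 with the brightest background row was 0.63 (permutation p = 0.0271, adjusted 0.108) and its rho 0.66 (permutation p = 0.0241, adjusted 0.0767), and r was 0.25 without NOD.Drak2-/- replicates 1 and 2. Without those 2 arrays the log2 difference of Gimap8 was 0.16.

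Gimap7, whose human protein can pair with other family members and stimulate their GTP hydrolysis, was close to background. Its log2 values had a lowest, median and highest of 5.89, 6.14 and 6.43 in NOD.Drak2-/-, against 5.56, 5.96 and 6.25 in NOD. It exceeded the brightest background row of its own array on 4 of 6 NOD.Drak2-/- arrays and 3 of 6 NOD arrays, whereas the other 7 members did so on 12 of 12. Its log2 difference of 0.21 (95% interval -0.08 to 0.50, adjusted p = 0.628 in limma) is therefore that of a signal not clear of background, and it was 0.13 without NOD replicate 1. Gimap4, which promotes the death of T cells once apoptosis has been triggered, had values of 9.73, 9.85 and 10.06 in NOD.Drak2-/- and 9.36, 9.80 and 10.04 in NOD (lowest, median and highest log2 value). The upper ends of the Gimap4 groups nearly coincided and the low end of NOD was set by replicate 1, at 9.36. The log2 difference of Gimap4 was 0.11 (95% interval -0.14 to 0.37, adjusted p = 0.775 in limma), and 0.04 without that array. Gimap9 had values of 7.78, 8.13 and 8.39 in NOD.Drak2-/- and 7.76, 8.07 and 8.34 in NOD. Its groups covered nearly the same range, and its log2 difference was 0.03 (95% interval -0.24 to 0.30, adjusted p = 0.949 in limma).

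The low end of NOD came from 2 arrays. Of the 8 members 5 had their lowest NOD value in replicate 2 and 3 in replicate 1. The lowest NOD.Drak2-/- value was above the lowest NOD value for 7 of 8 members, all but Gimap6, and for 7670 of 19505 genes. The mean of the 8 members per array, a description with no test, was 8.00 ± 0.06 in NOD.Drak2-/- and 7.84 ± 0.15 in NOD (log2, SD, n = 6 each). It was 7.59 in NOD replicate 2 and 7.72 in NOD replicate 1, against 7.91 to 7.95 in the other NOD arrays and 7.92 to 8.07 in NOD.Drak2-/-. Across genes, NOD replicate 2 correlated with the other NOD arrays at a mean r of 0.980, the lowest of the NOD arrays, whose highest was 0.986. It was not the lowest of all arrays. NOD.Drak2-/- replicates 2 (0.976), 4 (0.978) and 1 (0.979) had a lower mean r with their own group. Without NOD replicate 2, 6 of 8 members had a positive difference, with Gimap5 and Gimap9 below 0.

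The correlations between members over the arrays were mostly low, and pairs of other genes were not taken for comparison. Over the 12 arrays the 28 pairs of members had Pearson r between -0.30 and 0.74 with a median of 0.31, and 26 were positive. These values hold the genotype differences too, and with genotype means subtracted the median r was 0.20, while without NOD replicate 2 it was 0.16. An adjusted permutation p under 0.05 over the 28 pairs was met by 0 pairs by r and by 0 pairs by rho, with 4 and 3 pairs at an unadjusted p under 0.05. The highest r was between Gimap6 and Gimap8 (r = 0.74 with permutation p = 0.00623, adjusted 0.174, and rho = 0.78, adjusted 0.0696), and it was 0.52 without NOD.Drak2-/- replicates 1 and 2. The next were Gimap3 with Gimap8 (r = 0.69 with permutation p = 0.0139, adjusted 0.195, and rho = 0.70, adjusted 0.128) and Gimap7 with Gimap9 (r = 0.62 with permutation p = 0.0301, adjusted 0.281, and rho = 0.77, adjusted 0.0696). Without the 2 arrays farthest from the median these were 0.42 and 0.84. With genotype means subtracted, r was 0.72 for Gimap6 with Gimap8, 0.43 for Gimap3 with Gimap8 and 0.66 for Gimap7 with Gimap9 (adjusted permutation p = 0.228, 0.529 and 0.285). With the arrays centred on their medians, 2 pairs passed, Gimap6 with Gimap8 (r = 0.80) and Gimap3 with Gimap8 (r = 0.78), each with an adjusted permutation p of 0.0405. Centring takes the same number from both genes on an array, which can by itself raise r. The array medians averaged 5.20 in NOD.Drak2-/- and 5.27 in NOD, so centring also widens the genotype differences that these r values hold.

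The pairs were also taken within each genotype. In NOD.Drak2-/- 13 of the 28 pairs had a positive r, with a median of -0.08, and in NOD 25 of 28, with a median of 0.38 (n = 6 each, and the difference was not tested). Gimap5 had a negative r to 6 of the 7 other members in NOD.Drak2-/- and a positive r to all 7 in NOD. With Gimap3, its close relative, its r was -0.76 in NOD.Drak2-/- and 0.91 in NOD. The NOD side includes replicate 2, where Gimap5 lay far below the other NOD arrays (6.29). The positive signs of Gimap5 in NOD can therefore rest on that array, and are no sign of a genotype difference. The r of Gimap6 with Gimap8 was 0.95 in NOD.Drak2-/- and 0.64 in NOD, and that of Gimap7 with Gimap9 was 0.85 in NOD.Drak2-/- and 0.48 in NOD. With the brightest background row, the r of Gimap6 was 0.99 in NOD.Drak2-/- and 0.78 in NOD. That of Gimap8 was 0.93 in NOD.Drak2-/- and 0.19 in NOD, and the part of this row in the r between the 2 genes was not tested. Without NOD replicate 2 the median r over the NOD arrays was 0.19 (17 of 28 positive, 5 arrays), and without NOD.Drak2-/- replicates 1 and 2 the median over those arrays was 0.27 (15 of 28 positive, 4 arrays). The within-genotype medians thus rested on few arrays.

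**Figure D4:**
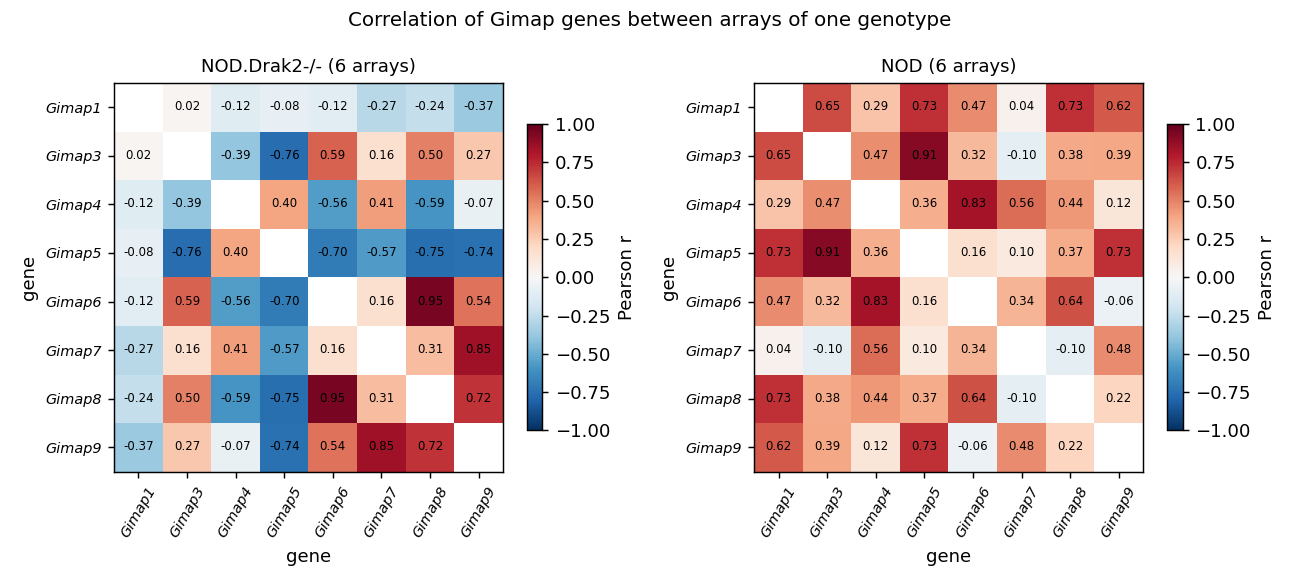
Pearson r between Gimap genes over the 6 NOD.Drak2-/- arrays (left) and the 6 NOD arrays (right), colour scale from -1 to 1. The row of Gimap5 is mostly negative on the left and positive on the right, and Gimap6 with Gimap8 is positive on both sides. The right side includes NOD replicate 2, in which Gimap5 lay far below the other NOD arrays.

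For each member the closest genes lay outside the family. The other members were few among the genes searched, so this was likely beforehand and says nothing of the family. The likeness was the Pearson r over the 12 arrays after each genotype mean had been subtracted, among 8127 other genes above the background level, and is a description. The closest were Rad54l2 (r = 0.94), the vacuolar ATPase subunit gene Atp6v0b (0.93) and Ccdc82 (0.90) for Gimap3. For Gimap5 they were the septin gene Septin2 (0.92) and Slirp (0.91), an RNA-binding protein of mitochondria, with the third a gene model. For Gimap1 they were Lman2l (0.94), Rccd1 (0.90) and the coatomer gene Copg2 (0.89), and for Gimap4 the tubulin gene Tuba1a (0.91), Lyar (0.91) and Ankrd55 (0.90). For Gimap6 they were Prcc (0.98), Ubald1 (0.97) and the calpain gene Capn3 (0.95), and for Gimap8 Nop16 (0.97), Zfhx2 (0.96) and Rangap1 (0.96). For Gimap7 they were Zfp109 (0.87), Auh (0.86) and Dnajc8 (0.86), and for Gimap9 Ppp1r16b (0.88), Galnt7 (0.88) and Slc25a51 (0.87). Among members, the highest r was that of Gimap6 with Gimap8 (0.72), at which Gimap6 stood at rank 699 of the genes like Gimap8. By rank the nearest were Gimap7 and Gimap9 (r = 0.66), Gimap7 at rank 206 of the genes like Gimap9 and Gimap9 at rank 215 of those like Gimap7. With 12 arrays and this many genes, high values are met in any search of this kind, and all the arrays share 1 normalization.

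The genes on either side of the cluster were taken for comparison. In the gene order of RefSeq, the 8 members were 8 consecutive measured genes, and 10 measured genes were taken on each side. Of these 20, 8 had a positive difference, beside 45.9% of all genes, with a median log2 difference of -0.08. Of the 10 that averaged above the background level, 6 had a positive difference, beside 55.4% of all genes above that level, with a median of 0.08. Of the neighbours 0 had an adjusted p under 0.05 in limma (0.0205% of all genes), and at an unadjusted p under 0.05 there was 1 higher and 3 lower in NOD.Drak2-/-, beside 3.74% and 5.69% of all genes. Zfp775, a zinc finger gene and the measured gene next to Gimap8, had values of 5.38, 5.90 and 5.99 in NOD.Drak2-/- and 5.92, 6.15 and 6.62 in NOD (lowest, median and highest log2 value). Its log2 difference was -0.39 (adjusted p = 0.471 in limma), and it exceeded its own array's brightest background row on 2 of 6 NOD.Drak2-/- and 6 of 6 NOD arrays. Krba1 differed by 0.35 (adjusted p = 0.494 in limma), and Sspo by -0.33 (adjusted p = 0.469 in limma) in the range of the background rows. On the other side of the cluster, next to Gimap3, Tmem176b and Tmem176a, named after their values were seen, differed by -0.14 and 0.40 (adjusted p = 0.899 and 0.604 in limma).

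**Figure D5:**
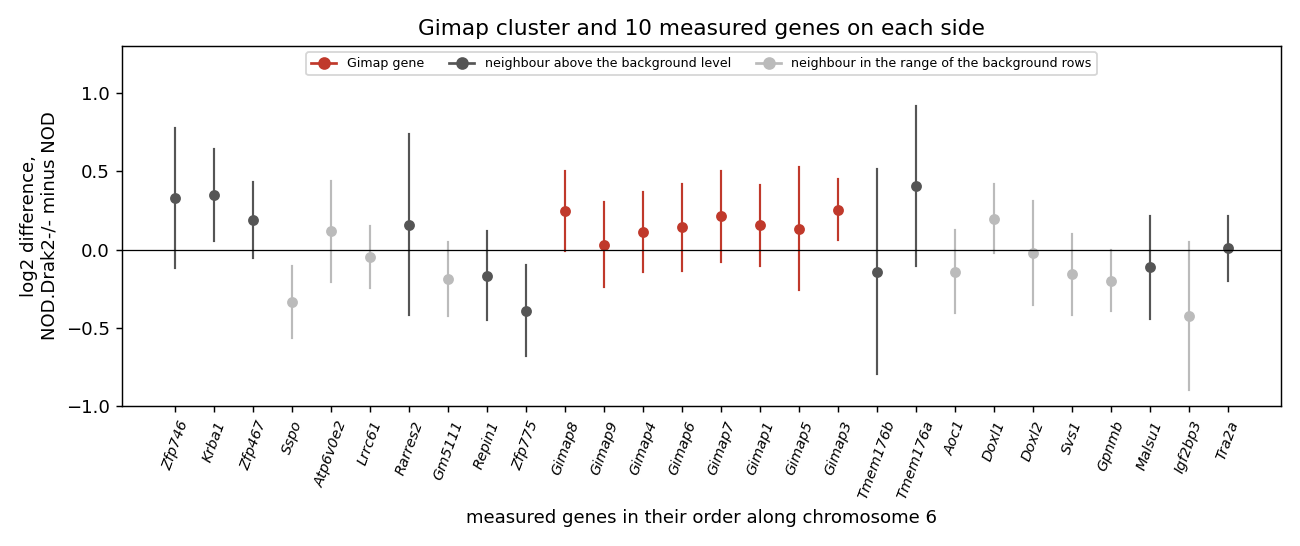
Log2 difference, NOD.Drak2-/- minus NOD (y axis), with 95% intervals from limma (n = 6 each), of the Gimap genes (red) and of 10 measured genes on each side in their order on chromosome 6 (x axis, spacing not to scale). The red points all lie above 0 and the neighbours lie on both sides of it, light grey marking those in the range of the background rows.

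Genes of the survival and autophagy routes that studies of Gimap proteins have linked to the family did not pass either. Of 40 listed genes 36 had a named row, of which 17 averaged higher and 19 lower in NOD.Drak2-/-, with a median log2 difference of -0.03 beside -0.02 over all genes. In limma 0 passed in either direction over all genes, beside 0.0205% of all genes. At an unadjusted p under 0.05 there was 1 higher and 2 lower in NOD.Drak2-/-, beside 3.74% and 5.69% of all genes. A positive difference was met by 45.9% of all genes, as above. Of the 36 genes 31 averaged above the background level, where 55.4% of 8128 genes had a positive difference and the median was 0.03. In limma on those 8128 genes alone, 443 were higher and 286 lower at an unadjusted p under 0.05. Of the Bcl-2 family, which controls mitochondrial apoptosis, 4 of 12 measured genes averaged higher in NOD.Drak2-/-, and the median log2 difference was -0.16. Pmaip1, a pro-apoptotic BH3-only gene, averaged 6.58 ± 0.42 in NOD.Drak2-/- and 7.06 ± 0.16 in NOD (log2, SD, n = 6 each; log2 difference -0.48, adjusted p = 0.471 in limma). The anti-apoptotic Bcl2 averaged 10.17 ± 0.29 in NOD.Drak2-/- and 10.33 ± 0.15 in NOD (log2 difference -0.16, adjusted p = 0.717 in limma). Bcl2a1a, also anti-apoptotic, differed by -0.30 (adjusted p = 0.513 in limma), and its near-identical copies can share probes, so its value is uncertain.

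Among Gsk3, Foxo and quiescence genes 6 of the 9 with a named row averaged higher in NOD.Drak2-/-, and the median log2 difference of the 9 was 0.15. Of these 9 genes 8 averaged above the background level, where 55.4% of genes had a positive difference and the median over genes was 0.03. Il7r encodes the receptor for the survival cytokine interleukin 7. Its log2 values had a lowest, median and highest of 8.98, 9.15 and 9.35 in NOD.Drak2-/-, against 8.11, 8.58 and 9.27 in NOD. All 6 NOD.Drak2-/- arrays were above the NOD mean of 8.63, and the groups overlapped. The log2 difference was 0.54 (SE 0.17, unadjusted p = 0.00519, adjusted p = 0.469 in limma). Of 15 autophagy genes 7 had a positive difference, beside 45.9% of all genes, with a median of -0.02. An unadjusted p under 0.05 in limma was met by 0 of these 15, beside 9.43% of all genes. Gabarapl2, the binding partner of Gimap6, averaged 8.89 ± 0.32 in NOD.Drak2-/- and 8.91 ± 0.29 in NOD (log2, SD, n = 6 each; log2 difference -0.02, 95% interval -0.37 to 0.33, adjusted p = 0.971 in limma).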

How the data were processed

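Regulatory T cells were sorted by flow cytometry and 125 ng of RNA was labelled with a whole-transcript kit, per the labels' protocols. The deposited values are on a log2 scale, and the submitters' processing notes name RMA, which corrects the background, brings arrays to a common distribution and summarises probes, and the package oligo for R. No source used here names their versions or a genome build. The table held 29129 rows with values from 1.49 to 12.8, of which 19572 had exactly 1 gene symbol in the platform annotation and 0 had several. The brightest row per gene was kept (19505 genes), with no filter on dim genes. Gimap3 carries Gimap5 as an old synonym, so rows were tied to RefSeq by gene ID. Array values rest on no counts, so the number of arrays limits the precision. No date of scanning or hybridization batch was given.

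Groups came from the labels, which describe biological replicates from single mice. The genotypes were compared with limma (version 3.58.1, under R 4.3.3) by lmFit and eBayes without a covariate, and p-values were adjusted over all 19505 genes by the Benjamini-Hochberg method and called at 0.05. Single genes were also compared by a two-sided exact permutation test, and correlations used 100000 resamples. Differences are NOD.Drak2-/- minus NOD, in log2 units. The limma and correlation steps were tested on simulated data. Named with values were all members, Stk17b, the 3 genes most like each member, the 3 neighbours and 3 list genes with the smallest p, Gabarapl2, Bcl2, Il7r and a set of cell markers. Members and lists were chosen with earlier results of these data known. Promoter sequences are from RefSeq, GRCm38.p6, and the motifs were listed after the data had been seen. Alternatives were median centring, a mean-spread trend, array weights, a replicate block, a filter on dim genes, all rows of a gene, leaving out each array, and, added after the data had been seen, leaving out the 2 arrays with the brightest background rows and that row as a covariate.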

Additional observations from a re-analysis of the deposited data

Results flagged for a closer look

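In 20 groups of 6 arrays (the 8 members, their mean and Stk17b, in each genotype) 2 held an array whose gap to its nearest neighbour took up an unusually large share of the range, where chance flags about 1 in 20 groups. Gimap5 was 6.29 in NOD replicate 2 (log2), with a gap of 0.66 of the range. Stk17b was 9.97 in NOD.Drak2-/- replicate 2 (log2), with a gap of 0.63 of the range. Both gaps were just past Dixon's 95% critical value for groups of 6.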

How the results depend on the processing

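The median log2 difference of the members was positive in every alternative run, from 0.11 to 0.19 when 1 array was left out, and 0 members passed in any of them. Leaving out 1 array, 1 to 2 members were at an unadjusted p under 0.05 and 1 to 2 genes passed over all genes, against 4 with all arrays, and median centring gave 2 members at an unadjusted p under 0.05. With 1 array left out, the log2 difference ran from -0.03 to 0.10 for Gimap9, -0.01 to 0.21 for Gimap5, 0.04 to 0.17 for Gimap4, 0.07 to 0.21 for Gimap6 and 0.13 to 0.27 for Gimap7. It was -0.026 for Gimap9 without NOD.Drak2-/- replicate 1, and without NOD replicate 2 it was -0.032 for Gimap9 and -0.0095 for Gimap5. Without the 2 arrays with the brightest background rows it was -0.032 for Gimap6 and -0.022 for Gimap9, and 2 genes passed. With that row as a covariate 1 gene passed. Median centring raised the pairs of members past the threshold to 2, against 0, and leaving out 1 array gave 0. With a replicate block 0 genes passed (1519 at an unadjusted p under 0.05, of which Gimap3 with 0.0481), and the 2 arrays without a partner carried no information in that fit. Same-numbered arrays mostly did not deviate together (r from -0.29 to 0.15 over 5 pairs). Of the NOD arrays, replicate 3 was the most like NOD.Drak2-/- replicate 3. The values thus did not show that the numbers pair the mice, and 5 pairs cannot exclude it. The cause of these shifts was not tested. Signal over background limits what can be said of Gimap7.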
